A study of Mus musculus with 34 samples.

Results

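Mouse liver tumours labelled as induced with the skip 1 isoform of β-catenin were set against tumours labelled as induced with dN90-β-catenin, the form of the protein without its N terminus. Libraries were assigned to the groups by their labels: 5 skip1 induced and 4 dN90 induced libraries, 9 of the 34 libraries in the series. The design text names subtypes of liver cancer driven by β-catenin isoforms that lack an exon; which exon the skip 1 isoform lacks is not given in the sources used here. The labels' protocols name hydrodynamic injection, in which a large volume given quickly into the bloodstream carries DNA mainly into hepatocytes, and total RNA of frozen tumours sequenced from strand-specific libraries. The same table holds 7 liver libraries without induction, used below as a background: 3 with the skip 1 isoform alone, 2 with the skip 2 isoform alone and 2 wild type. It also holds 2 skip2 induced libraries, which entered the fit but are not described. For the skip 2 libraries one label field repeats skip 1, and their source label was used. The source labels do not say what separates an isoform induced from the same isoform alone. The labels give no age, sex, strain or batch. They do not say whether each library is its own animal. A p-value here reflects only the spread within the groups of all 18 libraries fitted, livers and skip2 induced libraries included, which may be technical.

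β-catenin joins cadherins to the actin cytoskeleton and, when Wnt ligands bind their receptors, enters the nucleus to switch on genes with TCF factors. Its N terminus carries the residues that a destruction complex marks for degradation, so loss of that end leaves a stable protein. In the liver, Wnt signalling keeps pericentral hepatocytes, around the central vein, making glutamine and drug-metabolising enzymes, while periportal hepatocytes make glucose and break down amino acids. A second axis of liver expression is sex: pulsed growth hormone in males, acting through its receptor and STAT5B, keeps male-biased genes on and female-biased genes off.

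Of 6592 genes tested, 305 (4.63%) differed between skip1 induced and dN90 induced libraries at a limma adjusted p under 0.05. Of these, 209 (3.17%) were higher and 96 (1.46%) lower in skip1 induced libraries. Both shares are the background for every count of a gene list below. The higher genes included major urinary proteins, sex-biased enzymes, terminal complement proteins, drug-metabolising enzymes and a part of both zonation programmes. The lower genes included cytoskeletal proteins, 2 genes of the YAP and TEAD list, the fetal transcript H19, Hamp2 and genes of cholesterol synthesis. Of 22 transcription factors and nuclear receptors of hepatocytes, 0 were called. Hnf4a, which holds hepatocyte identity, had 407, 431, 278, 395 and 397 normalized counts in skip1 induced libraries, against 421, 445, 490.1 and 347 in dN90 induced libraries (log2 difference -0.16 ± 0.18 (SE), limma adjusted p = 0.729). The ranges of the compared groups did not overlap for 509 genes (7.72%), of which 254 (3.85%) were higher and 255 (3.87%) lower. With voom on estimated reads the split was 160 higher and 170 lower. That fit differs from the reported one in the values, their scaling and their weights together.

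**Figure D1:**
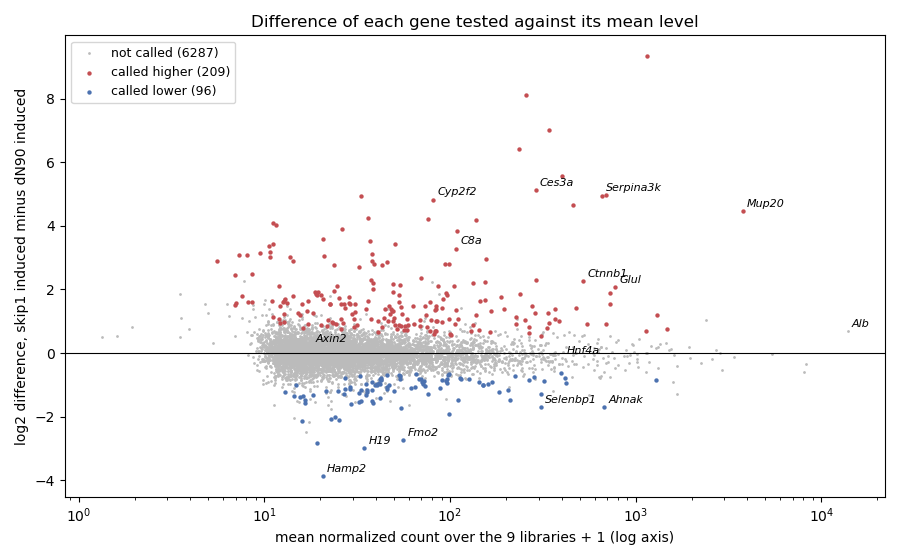
Log2 difference between skip1 induced and dN90 induced libraries (vertical axis, in log2 units) against the mean normalized count of the 9 libraries plus 1 (horizontal axis, log scale); each point is 1 of the 6592 genes tested. Red points are the 209 genes called higher and blue points the 96 called lower, and the largest positive differences reach further from 0 than the largest negative ones.

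Estimated depth was low, at 361772 to 574899 reads per compared library, which limits what can be said of genes with few reads. On the first principal component of the 18 libraries, which held 49.9% of the variance, the skip1 induced libraries lay at -4.81, 7.48, -24.7, -18.7 and -14.3, the dN90 induced libraries at -35.8, -37.8, -48.8 and -54.2, and the 7 livers between 36.2 and 45.0. Every skip1 induced library therefore lay closer to the livers than any dN90 induced library did. Of the 209 genes called higher, 195 (93.3%) had a dN90 induced mean below all 7 livers, against 1470 of all 6592 genes (22.3%). The skip1 induced mean was within the range of the livers for 65 of them, below it for 131 and above it for 13. Over all 6592 genes it was within that range for 4371, below it for 1140 and above it for 1081. A skip1 induced mean within the liver range was thus less common among the higher genes than among all genes. Of the 96 genes called lower, 87 had a dN90 induced mean above all 7 livers (all genes: 1496 of 6592). Their skip1 induced mean was within the range of the livers for 48, also a smaller share than over all genes (4371 of 6592). As these are bulk samples, fewer cells of a type and less RNA per cell cannot be told apart.

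Ctnnb1, the gene of β-catenin itself (chr9:120929216-120960507, mm10), was higher in skip1 induced libraries. It had 1266, 580.2, 737, 768 and 669 normalized counts in skip1 induced libraries, against 135, 150.0, 171 and 199 in dN90 induced libraries (log2 difference 2.25 ± 0.20 (SE), limma adjusted p = 1.63e-07). All 5 skip1 induced libraries lay above every dN90 induced library, with skip1 induced replicate 1 highest. The livers ranged from 125 to 177 (median 148), so dN90 induced libraries overlapped them. Values per gene do not tell the endogenous transcript from an introduced one, or an exon-skipped isoform from the whole transcript, and therefore give no check of the dN90 label. Of the 12 tested members of its own list, which holds cadherin partners, destruction complex proteins and TCF factors, Ctnnb1 was the 1 called.

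The feedback genes of the Wnt pathway, which β-catenin and TCF switch on in many tissues, gave no call. None of the 7 tested passed the threshold, and their median log2 difference was -0.34, against -0.02 over all genes. With the compared groups alone in the fit, with voom or without dN90 induced replicate 2, 1 of the 7 was lower. Axin2, a scaffold of the destruction complex and a general Wnt target, had 8.61, 12, 23.2, 26.2 and 20.2 normalized counts in skip1 induced libraries, against 26.7, 15.3, 12.5 and 7.95 in dN90 induced libraries and 1.64 to 9.14 (median 4.12) in livers (log2 difference 0.21 ± 0.44 (SE), limma adjusted p = 0.873). The ranges of the compared groups overlapped nearly in full. Tbx3, a transcription factor downstream of β-catenin in liver, had 16.2, 15.6, 23.4, 37.4 and 28.5 in skip1 induced libraries, against 35.6, 38.4, 36.1 and 26.6 in dN90 induced libraries (log2 difference -0.54 ± 0.25 (SE), limma adjusted p = 0.282). Lgr5, a receptor that amplifies Wnt signals, was too low for the test. Its normalized counts were 3.23, 3.70, 17.7, 14.4 and 7.45 in skip1 induced libraries, against 3.15, 3.06, 3.76 and 0.993 in dN90 induced libraries. Tested without the filter on low values, it was not called (log2 difference 1.28 ± 0.55 (SE), limma adjusted p = 0.308).

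Pericentral genes were higher in skip1 induced libraries for 6 of 14 tested (42.9%, against 3.17% of all genes). Their median log2 difference was 0.81, and none was lower. Glul (chr1:153899944-153909723), the glutamine synthetase that clears ammonium next to the central vein, had 558, 500.4, 1227, 1910.0 and 1539.6 normalized counts in skip1 induced libraries, against 565, 408, 157 and 86.4 in dN90 induced libraries (log2 difference 2.08 ± 0.44 (SE), limma adjusted p = 0.00574). The groups overlapped: dN90 induced replicate 1 lay above skip1 induced replicates 1 and 2. The livers held 329 to 636 (median 543), so skip1 induced replicates 3, 4 and 5 lay above all of them and dN90 induced replicates 3 and 4 below. Slc1a2, a glutamate transporter of the same cells, had 152, 171, 126, 242 and 232 normalized counts in skip1 induced libraries, against 151, 77.3, 25.6 and 6.14 in dN90 induced libraries (log2 difference 2.21 ± 0.55 (SE), limma adjusted p = 0.0185). Here dN90 induced replicate 1 again lay within the skip1 induced range, and replicate 4 was lowest.

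The other called pericentral genes followed the same direction. Slc13a3, a dicarboxylate transporter, ranged from 17.6 to 52.4 normalized counts in skip1 induced libraries, against 4.97 to 13.4 in dN90 induced libraries (log2 difference 1.94 ± 0.40, SE). Rgn, the gluconolactonase of vitamin C synthesis, ranged from 442 to 510.0 in skip1 induced libraries, against 149 to 359 in dN90 induced libraries (log2 difference 1.07 ± 0.20, SE). Cyp1a2, a P450 that oxidises caffeine and aromatic amines, ranged from 64.1 to 179 in skip1 induced libraries, against 20.9 to 68.4 in dN90 induced libraries (log2 difference 1.71 ± 0.36, SE). The call of Cyp1a2 was lost when skip1 induced replicates 1 and 2 were left out together (limma adjusted p = 0.0552). Cyp2e1, the pericentral P450 that oxidises ethanol, was not called: it had 3468, 3733, 2653, 3587 and 2785 normalized counts in skip1 induced libraries, against 4855, 3425, 3142 and 2915 in dN90 induced libraries (log2 difference -0.13 ± 0.24 (SE), limma adjusted p = 0.856). Its levels lay within the range of the livers, 1794 to 5172, in every compared library.

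Periportal genes were also higher, in 6 of 16 tested (37.5%, against 3.17% of all genes), with a median of 0.54 and none lower. Without skip1 induced replicates 1 and 2 together, 5 were higher and 2 lower, with a median of 0.23, and without dN90 induced replicate 4 alone 1 was lower. The clearest was Cyp2f2 (chr7:27119909-27133660), a P450 of the periportal zone, with 176, 343, 39, 45.1 and 100.1 normalized counts in skip1 induced libraries, against 1.57, 8.16, 6.27 and 0 in dN90 induced libraries (log2 difference 4.83 ± 0.61 (SE), limma adjusted p = 2.43e-05). All skip1 induced libraries lay above all dN90 induced libraries and below the livers, which held 607 to 1028 (median 769). Histidine breakdown, a periportal pathway, was higher at its first 3 steps. Hal, the histidine ammonia-lyase of the first step, had 42, 65.7, 23.2, 10.8 and 45.8 normalized counts in skip1 induced libraries, against 2.36, 8.16, 5.02 and 1.99 in dN90 induced libraries (log2 difference 2.76 ± 0.42 (SE), limma adjusted p = 0.000188). Uroc1, the urocanate hydratase of the next, had 99.4, 169, 27.7, 29 and 52.4 in skip1 induced libraries, against 17.9, 24.6, 10.1 and 4.99 in dN90 induced libraries (log2 difference 2.17 ± 0.45 (SE), limma adjusted p = 0.00482). Neither gene's groups overlapped. Amdhd1, the imidazolonepropionase that follows, was higher by 1.55 ± 0.32 (SE, log2; limma adjusted p = 0.00472). Ftcd, which acts last, was not called (log2 difference 0.77 ± 0.29 (SE), limma adjusted p = 0.163). Without skip1 induced replicates 1 and 2, Uroc1 differed by 1.42 and Amdhd1 missed the threshold (limma adjusted p = 0.0598). The wider list of amino acid catabolism gave 2 of 28 higher and 2 lower, with a median of 0.18. Those shares were 7.14% each way, against 3.17% higher and 1.46% lower of all genes. In that list 0 were higher and 4 lower without skip1 induced replicates 1 and 2.

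Glucose production differed in part: 3 of 9 gluconeogenic genes were higher and none lower, while the median was -0.19 and 4 of the 9 differences were positive. Without skip1 induced replicate 2, 2 were higher and 2 lower. G6pc, the phosphatase that releases free glucose, had 54.9, 57.4, 143, 178 and 103 normalized counts in skip1 induced libraries, against 14.2, 37.7, 7.53 and 25.8 in dN90 induced libraries (log2 difference 2.35 ± 0.38 (SE), limma adjusted p = 0.000381). The groups did not overlap, and skip1 induced replicates 3 and 4 were highest. Pck1, the enzyme that commits carbon to glucose synthesis, had 637, 1301, 432, 575 and 346 in skip1 induced libraries, against 345, 373, 123 and 144 in dN90 induced libraries (log2 difference 1.43 ± 0.41 (SE), limma adjusted p = 0.0482). Its call was lost on leaving out any 1 of skip1 induced replicates 1 (limma adjusted p = 0.0969), 2 (0.119) and 4 (0.0807) or dN90 induced replicates 3 (0.219) and 4 (0.160). Sds, the serine dehydratase of periportal cells, was low throughout, at 9.68, 13, 4.64, 5.42 and 7.45 normalized counts in skip1 induced libraries, against 0.787, 0, 0 and 0 in dN90 induced libraries, and with voom it was not called (adjusted p = 0.0519). Urea cycle genes, periportal as well, gave 0 of 8 called and a median of -0.29.

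**Figure D2:**
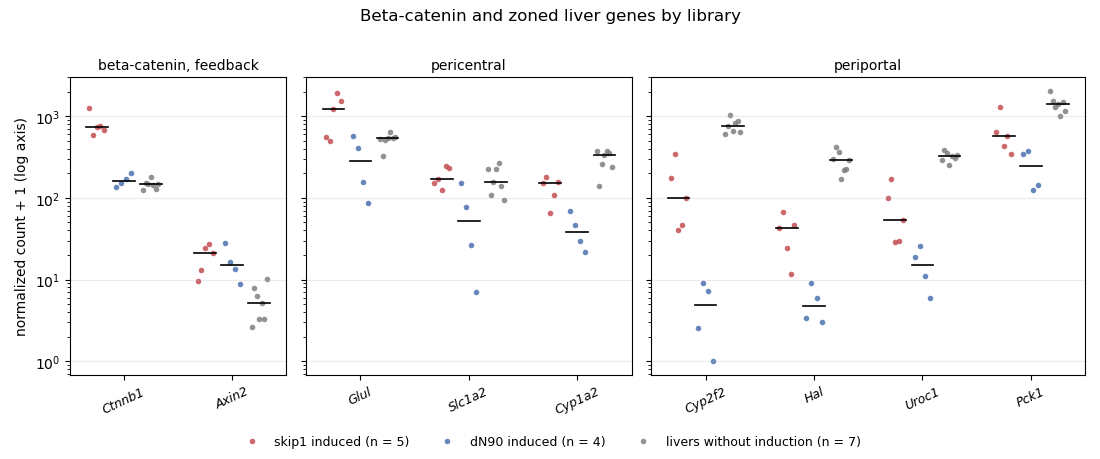
Normalized count plus 1 (vertical axis, log scale) of Ctnnb1, Axin2, 3 pericentral and 4 periportal genes; each point is a library, the black lines are group medians, and for each gene the order is skip1 induced (red, 5), dN90 induced (blue, 4) and livers without induction (grey, 7). Ctnnb1 and Cyp2f2 separate the compared groups with no overlap, while Axin2 overlaps and Glul overlaps through dN90 induced replicate 1.

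Genes that male and female mouse livers express at different levels differed strongly between the tumours. Of 15 male-biased genes tested, 14 were higher in skip1 induced libraries, with a median log2 difference of 3.29 (2.78 with the 2 genes listed at 0 in dN90 induced libraries set at their bound of 3 reads per library), against 3.17% higher over all genes. Mup20 (chr4:62050234-62054158), the male pheromone protein darcin, had 6278, 5694, 8112, 6926 and 5724 normalized counts in skip1 induced libraries, against 554, 234, 196 and 285 in dN90 induced libraries (log2 difference 4.47 ± 0.25 (SE), limma adjusted p = 3.97e-10). The livers held 5009 to 9158 (median 6794), so skip1 induced libraries lay within their range and dN90 induced libraries far below. Cyp4a12a (chr4:115299046-115332815), a male-specific fatty acid hydroxylase, had 47.3, 68.5, 29.7, 81.2 and 58.6 in skip1 induced libraries, against 2.36, 0, 0 and 1.99 in dN90 induced libraries (log2 difference 4.95 ± 0.34 (SE), limma adjusted p = 4.67e-09). Its level was 110.4 to 181 (median 146) in livers, above every compared library. Slco1a1, a male-biased uptake carrier for bile acids and steroids, had 77.5, 82.3, 94.7, 77.6 and 83 in skip1 induced libraries, against 7.08, 17.3, 3.76 and 3.97 in dN90 induced libraries (log2 difference 3.44 ± 0.31 (SE), limma adjusted p = 1.91e-07). The skip1 induced values were close to each other, and no dN90 induced value came near them.

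Hsd3b5, a steroid dehydrogenase of male liver, had 22.6, 26.8, 5.57, 13.5 and 22.4 normalized counts in skip1 induced libraries and was listed at 0 in all 4 dN90 induced libraries (limma adjusted p = 4.6e-08). Elovl3, which lengthens fatty acids, had 9.68, 8.33, 8.36, 31.6 and 37.3 in skip1 induced libraries and was likewise listed at 0 in all 4 dN90 induced libraries (limma adjusted p = 0.00108). Against a floor of 3 reads per library, Hsd3b5 was at least 5.98-fold higher and Elovl3 at least 6.26-fold higher. The 1 tested male-biased gene not called was Cyp2u1.

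Major urinary proteins, secreted carriers of scent molecules encoded by a cluster of near-identical genes, were higher in 12 of 16 tested, with a median of 4.21. Their summed normalized count was 9651 to 20160 in skip1 induced libraries, 252.6 to 700.5 in dN90 induced libraries and 41790 to 105900 in livers. Mup3 had 1386, 2451, 639, 646 and 993 in skip1 induced libraries, against 47.9, 39.1, 14.8 and 41.5 in dN90 induced libraries (log2 difference 4.98 ± 0.39 (SE), limma adjusted p = 3.23e-08). Mup10 had 2200.3, 4318, 854, 1454 and 1435 in skip1 induced libraries, against 55.1, 0, 0 and 0 in dN90 induced libraries. Mup7 had 464, 2351, 76.2, 297 and 350.3 in skip1 induced libraries, against 20.4, 16.3, 0 and 10.9 in dN90 induced libraries, and skip1 induced replicate 2 stood far above the others. Reads of these copies can be split in either direction by the counting, so single Mup values are uncertain. Voom on estimated reads called 5 of the 16.

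Called female-biased genes were lower. Of the 18 measured, 6 passed the filter on low values, and 1 of these, Fmo2, was lower (2 without dN90 induced replicate 4). Fmo2 (chr1:162874317-162898726), a flavin monooxygenase, had 23.7, 13, 16.8, 9.96 and 11.8 normalized counts in skip1 induced libraries, against 118, 105, 133 and 65.3 in dN90 induced libraries and 1.07 to 7.96 (median 4.13) in livers (log2 difference -2.74 ± 0.32 (SE), limma adjusted p = 1.06e-05). All compared libraries lay above all livers, and dN90 induced libraries lay highest. Without the filter, 8 of 18 were lower in skip1 induced libraries, against 0.887% lower and 1.51% higher over the 14086 genes then tested.

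Among those low genes, Cux2 (chr5:121856366-122050102), a transcription factor of female liver that represses male-biased genes, had 1.08, 0.930, 0.934, 1.82 and 0 normalized counts in skip1 induced libraries, against 13.5, 10.3, 26.5 and 5.995 in dN90 induced libraries and 0 to 1.38 in livers (limma adjusted p = 0.000292 without the filter). Cyp2b9, a P450 of female liver, had 2.15, 0, 0, 0 and 0 in skip1 induced libraries, against 4.72, 9.18, 10 and 14.9 in dN90 induced libraries (limma adjusted p = 7.47e-05). Both genes had their lowest dN90 induced value above their highest skip1 induced value. Atp6v0d2, a proton pump subunit with female bias in liver, had 1.08, 2.78, 4.64, 1.81 and 2.13 in skip1 induced libraries, against 23.6, 26.5, 33.9 and 27.8 in dN90 induced libraries (limma adjusted p = 4.45e-05). At these depths 1 normalized count is about 1 read, so the skip1 induced values of these genes are a few reads at most.

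All 18 libraries held RNA of Y-linked genes. The summed normalized count of Ddx3y, Kdm5d, Uty and Eif2s3y was 33.1 to 55.2 in skip1 induced libraries, 35.4 to 46.7 in dN90 induced libraries and 29.8 to 64.8 in livers. Xist, transcribed from the inactive X chromosome of females, was at 0 to 5.29 in skip1 induced libraries, 0.865 to 4.67 in dN90 induced libraries and 0 to 6.82 in livers. The sex-biased genes therefore differed between groups whose libraries all held Y-linked RNA at overlapping levels.

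Of 7 tested growth hormone pathway genes, 2 were higher. Ghr (chr15:3317760-3583492), the growth hormone receptor, had 146, 206, 108, 109 and 135 normalized counts in skip1 induced libraries, against 59.9, 42.8, 32.8 and 23.2 in dN90 induced libraries (log2 difference 1.84 ± 0.24 (SE), limma adjusted p = 3.8e-05). The groups did not overlap, and both lay below the livers, at 241 to 396. Igfals, the acid-labile subunit that carries IGF1 in plasma, was higher by 1.27 ± 0.29 (SE, log2; limma adjusted p = 0.0103), a call lost when the fit held the compared groups alone (adjusted p = 0.0514) or without skip1 induced replicates 1 and 2 (0.087). Stat5b, the transcription factor of the pathway, had 20.6, 18.6, 23.7, 35.1 and 39.7 in skip1 induced libraries, against 27.7, 24.9, 14.7 and 38.1 in dN90 induced libraries (log2 difference 0.08 ± 0.27 (SE), limma adjusted p = 0.932). Igf1, the main hormone made in response, had 118, 162, 88.4, 139.9 and 85.4 in skip1 induced libraries, against 120.2, 147, 108 and 42 in dN90 induced libraries (log2 difference 0.28 ± 0.28 (SE), limma adjusted p = 0.7). Neither Stat5b nor Igf1 passed the threshold, and the groups overlapped for both.

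**Figure D3:**
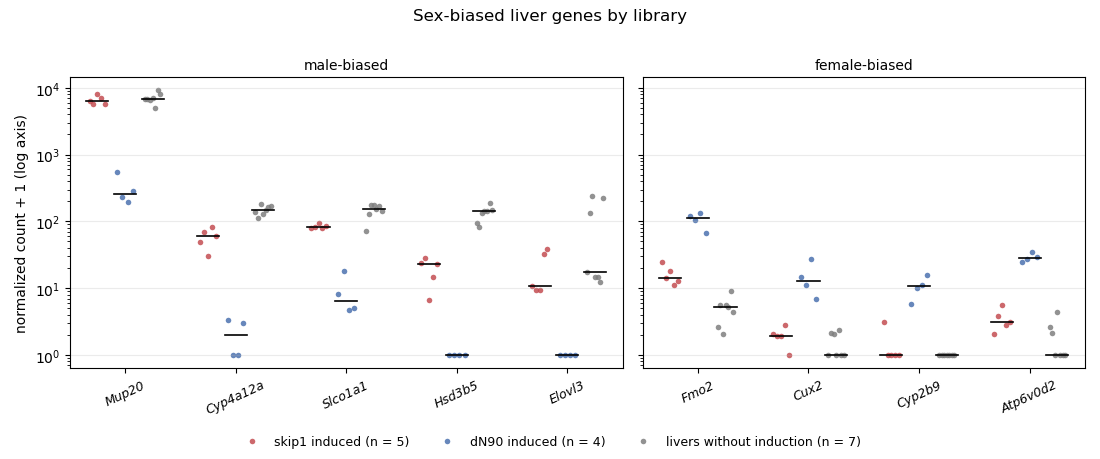
Normalized count plus 1 (vertical axis, log scale) of 5 male-biased genes (left) and 4 female-biased genes (right); each point is a library, the black lines are group medians, and for each gene the order is skip1 induced (red, 5), dN90 induced (blue, 4) and livers without induction (grey, 7). The dN90 induced points lie lowest for every male-biased gene and above the skip1 induced points for every female-biased gene shown.

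Some proteins that hepatocytes secrete into blood were higher. Complement is the cascade of plasma proteins that opsonises and lyses microbes. Of its 26 tested genes, 8 (30.8%, against 3.17% of all genes) were higher and none lower (1 lower with voom). Their median was 0.38. The called genes were the lectins Mbl1 and Mbl2 that start the cascade, the inhibitor C4bp, and C6, C8a, C8b, C8g and C9, which build the membrane attack complex. C8a (chr4:104815679-104876398), the α chain of the eighth component, had 189.7, 267, 109, 169.7 and 154 normalized counts in skip1 induced libraries, against 25.1, 20.6, 8.15 and 17.5 in dN90 induced libraries and 386 to 569.8 (median 444) in livers (log2 difference 3.29 ± 0.26 (SE), limma adjusted p = 3.23e-08). C8a is also on the male-biased list. C6, which joins the complex before it, had 157, 145, 108, 202 and 139 in skip1 induced libraries, against 25.2, 23.5, 23.8 and 11.9 in dN90 induced libraries (log2 difference 2.80 ± 0.21 (SE), limma adjusted p = 1.59e-08). Every skip1 induced library exceeded every dN90 induced library for both genes, by several fold.

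C8b, the β chain, ranged from 37.1 to 101 normalized counts in skip1 induced libraries, against 17.7 to 24.6 in dN90 induced libraries (log2 difference 1.49 ± 0.22, SE). C9, which forms the pore, ranged from 153 to 202 in skip1 induced libraries, against 50.7 to 105 in dN90 induced libraries (log2 difference 1.2 ± 0.20, SE). Mbl1, a mannose-binding lectin, ranged from 50.2 to 91.6 in skip1 induced libraries, against 19.9 to 33.9 in dN90 induced libraries (log2 difference 1.44 ± 0.21, SE). None of the 3 overlapped between groups. Hc, the fifth component, on which the complex is assembled, was not called (log2 difference 0.63 ± 0.18 (SE), limma adjusted p = 0.0535). C3, the hub of the cascade, was not called either (log2 difference -0.59 ± 0.24 (SE), limma adjusted p = 0.195).

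The promoter of C8a is shown because it was the called complement gene with the largest difference and its window holds the palindrome bound by STAT factors, which act downstream of the growth hormone receptor. The sequence is RefSeq's on GRCm38.p6, chr4:104876349-104876648 on the minus strand, from 250 bases before to 50 after the start site, with the TTCNNNGAA match in capitals.
C8a: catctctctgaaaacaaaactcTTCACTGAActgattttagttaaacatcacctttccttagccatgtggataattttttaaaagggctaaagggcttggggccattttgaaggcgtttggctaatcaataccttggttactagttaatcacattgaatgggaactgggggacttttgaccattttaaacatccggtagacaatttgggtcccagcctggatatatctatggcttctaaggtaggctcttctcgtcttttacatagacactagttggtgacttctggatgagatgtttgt
The match lies 228 bases before the start site. Such a match, on either strand, was in 10 of the 164 higher genes with a promoter in the table (6.1%), in 6.48% of 5228 tested genes and in 8.47% of all 27025 promoters. It was in 1 of the 72 lower genes (1.39%). The letters are therefore not more frequent among the higher genes than among the genes tested.

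Among other plasma proteins, 3 of 22 coagulation genes, 4 of 29 general secreted proteins and 5 of 13 Serpina genes were higher, and none was lower. Lower calls appeared without skip1 induced replicates 1 and 2 together, for 2 coagulation, 1 secreted protein and 1 Serpina gene, and with voom for 1 coagulation and 3 secreted protein genes. F11, coagulation factor XI, had 10.8, 11.1, 7.43, 17.1 and 13.8 normalized counts in skip1 induced libraries, against 3.93, 4.08, 0 and 0 in dN90 induced libraries (log2 difference 2.50 ± 0.44 (SE), limma adjusted p = 0.00108). With voom its adjusted p was 0.05165, and with a pseudocount of 5 its difference was 1.32. Serpina3k, a protease inhibitor from a family of close copies, had 1306, 1845, 494, 1203 and 874 in skip1 induced libraries, against 83.4, 81.6, 20.1 and 7.95 in dN90 induced libraries (log2 difference 4.95 ± 0.51 (SE), limma adjusted p = 1.41e-06). Ttr, the thyroxine and retinol carrier transthyretin, had 1186, 1745, 778, 681 and 1022 in skip1 induced libraries, against 395, 287, 225 and 228 in dN90 induced libraries (log2 difference 1.89 ± 0.25 (SE), limma adjusted p = 4.79e-05). Both genes separated the groups without overlap. Serpina7, the thyroxine-binding globulin, had 40.9, 25.9, 102, 70.4 and 47.9 normalized counts in skip1 induced libraries, against 17.3, 8.16, 7.53 and 18.9 in dN90 induced libraries and 0.831 to 6.90 in livers (log2 difference 2.02 ± 0.42 (SE), limma adjusted p = 0.00534). It was 1 of the 13 higher genes whose skip1 induced mean was above all livers. Alb, serum albumin, had 20193, 35386, 8019, 11658 and 11617 in skip1 induced libraries, against 11585, 9916, 7945 and 8439 in dN90 induced libraries (log2 difference 0.69 ± 0.36 (SE), limma adjusted p = 0.353), and dN90 induced libraries overlapped the lower part of the skip1 induced range. Without dN90 induced replicate 3, 2 of the general secreted proteins were called.

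**Figure D4:**
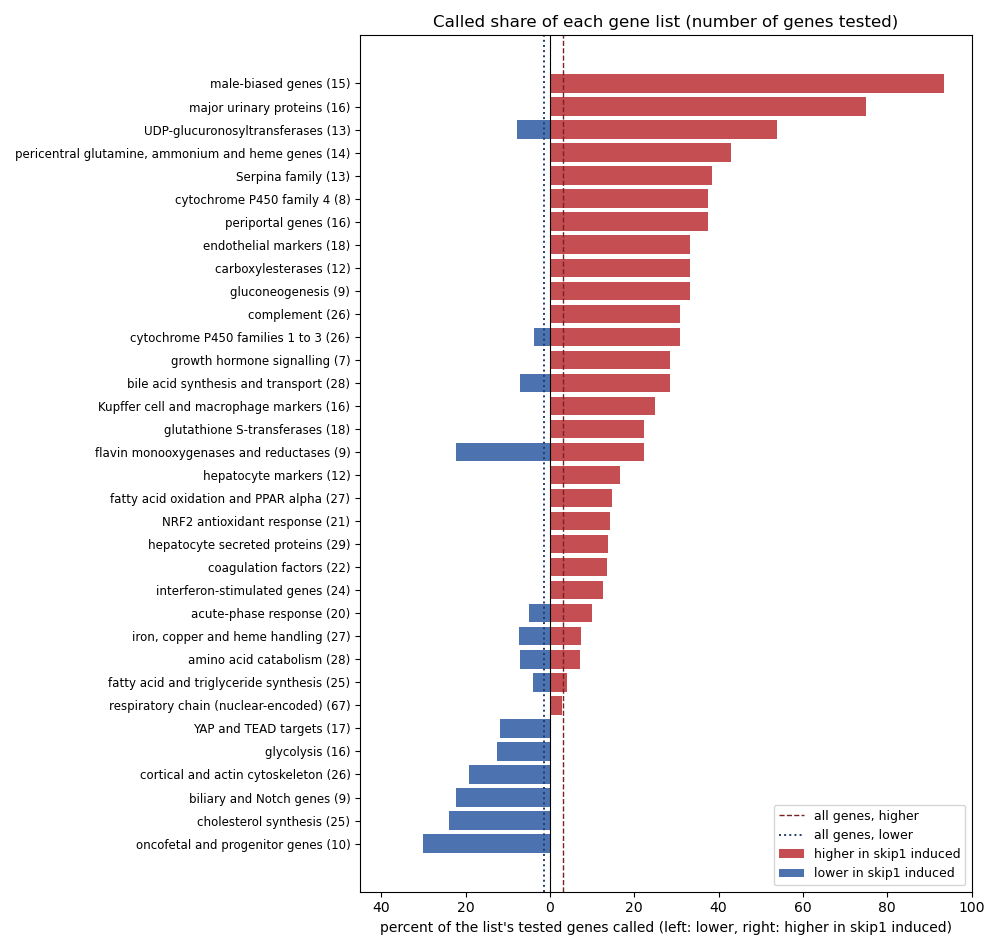
Percent of the tested genes of each list called higher (red, right) or lower (blue, left) in skip1 induced libraries, for lists with at least 6 tested and 2 called genes, with the number tested in parentheses. The dashed line marks the 3.17% of all genes called higher and the dotted line the 1.46% called lower; male-biased genes reach furthest right and oncofetal genes furthest left.

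Enzymes that clear drugs, hormones and toxins were called higher more often than lower. P450 families 1 to 3 gave 8 of 26 higher and 1 lower, UDP-glucuronosyltransferases 7 of 13 higher and 1 lower, carboxylesterases 4 of 12 higher, and glutathione S-transferases 4 of 18 higher, or 2 without skip1 induced replicate 1 or dN90 induced replicate 2. Cyp3a11, the main drug-metabolising P450 of its family in mouse liver, had 501, 860.3, 349, 208 and 315 normalized counts in skip1 induced libraries, against 164, 118, 59 and 33.8 in dN90 induced libraries (log2 difference 2.31 ± 0.38 (SE), limma adjusted p = 0.000459). Cyp2c67 had 61.3, 50, 44.6, 99.3 and 47.9 in skip1 induced libraries, against 9.44, 9.18, 5.02 and 4.97 in dN90 induced libraries (log2 difference 2.91 ± 0.25 (SE), limma adjusted p = 1.51e-07). Cyp2c68, from the same gene cluster, went the other way, with 22.6, 27.8, 15.8, 30.7 and 19.2 in skip1 induced libraries, against 73.1, 59.2, 53.9 and 29.8 in dN90 induced libraries (log2 difference -1.15 ± 0.26 (SE), limma adjusted p = 0.00866); these copies share sequence, so their separation rests on the authors' counting. Ces3a, a carboxylesterase that hydrolyses esters in the endoplasmic reticulum, had 617, 721, 227, 499 and 479 in skip1 induced libraries, against 25.8, 15.5, 11.6 and 5.10 in dN90 induced libraries (log2 difference 5.13 ± 0.33 (SE), limma adjusted p = 1.48e-09). Its lowest skip1 induced library was several times its highest dN90 induced one.

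Conjugating enzymes moved in both directions. Ugt2b1, which adds glucuronic acid to drugs and steroids, had 152, 216, 97.5, 166 and 159.7 normalized counts in skip1 induced libraries, against 32.2, 28.6, 11.3 and 18.9 in dN90 induced libraries (log2 difference 2.80 ± 0.26 (SE), limma adjusted p = 2.3e-07). Ugt1a1, the enzyme that conjugates bilirubin, was lower, with 149.6, 209, 70.6, 93.9 and 80.9 in skip1 induced libraries, against 278, 244, 297 and 222 in dN90 induced libraries (log2 difference -1.21 ± 0.27 (SE), limma adjusted p = 0.00884). The 2 genes each separated the groups, in opposite directions. Ugt1a genes share their last exons, so reads there can be split among them. Without skip1 induced replicate 2, or without dN90 induced replicate 4, the number of UDP-glucuronosyltransferases called higher was 4.

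Sulfotransferases showed the same contrast. Sult2a8, which sulfates bile acids in mouse liver, had 80.7, 103, 40, 37 and 46.9 normalized counts in skip1 induced libraries, against 1.57, 2.04, 2.51 and 1.99 in dN90 induced libraries (log2 difference 4.26 ± 0.25 (SE), limma adjusted p = 5.16e-10). Sult1a1, which sulfates phenols, was lower, with 186, 211, 183, 178 and 159.7 in skip1 induced libraries, against 530.1, 472, 527 and 314 in dN90 induced libraries and 76.5 to 123 in livers (log2 difference -1.30 ± 0.19 (SE), limma adjusted p = 0.000103). No skip1 induced library overlapped a dN90 induced one for either. Aox3, an aldehyde oxidase, was higher, with 278, 345, 117, 142 and 241 in skip1 induced libraries, against 84.2, 59.2, 57.7 and 61.6 in dN90 induced libraries (log2 difference 1.66 ± 0.26 (SE), limma adjusted p = 0.00032). Selenbp1, a selenium-binding protein that oxidises methanethiol, was lower, with 179, 223, 122, 130.0 and 133 in skip1 induced libraries, against 513, 511, 561 and 407 in dN90 induced libraries (log2 difference -1.69 ± 0.19 (SE), limma adjusted p = 6.56e-06).

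Bile acid genes gave 8 of 28 higher and 2 lower, with a median of 0.27. Hsd3b7, the dehydrogenase that acts on the sterol ring early in the pathway, had 90.5, 120.0, 109.7, 165 and 171 normalized counts in skip1 induced libraries, against 28.1, 36, 28.2 and 23.3 in dN90 induced libraries (log2 difference 2.12 ± 0.25 (SE), limma adjusted p = 1.22e-05). Cyp7b1, a hydroxylase of the alternative pathway and a male-biased gene, had 15.1, 27.8, 9.29, 21.7 and 12.8 in skip1 induced libraries, against 1.57, 4.08, 3.76 and 2.98 in dN90 induced libraries (log2 difference 2.11 ± 0.28 (SE), limma adjusted p = 4.1e-05). In neither gene did the groups overlap. Scp2, the sterol carrier that also acts as the peroxisomal thiolase of side chain removal, was higher by 1.54 ± 0.23 (SE, log2; limma adjusted p = 0.000135). Slco1b2, an uptake carrier of the sinusoidal membrane, was higher by 1.13 ± 0.22 (SE, log2; limma adjusted p = 0.00219). Cyp7a1, the rate-limiting enzyme of the classical pathway, was not called (log2 difference -0.83 ± 0.36 (SE), limma adjusted p = 0.245). The lower members numbered 1 without skip1 induced replicate 1, 3 or 4 or dN90 induced replicate 3, and 0 without skip1 induced replicate 5 or dN90 induced replicate 1 or 2.

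Cholesterol synthesis was lower at some steps: 6 of 25 genes of the list were lower and none higher, with a median of -0.42. Lss, the lanosterol synthase that closes the sterol rings, had 69.9, 86, 63.2, 61.4 and 59.6 normalized counts in skip1 induced libraries, against 140.0, 158, 122 and 91.4 in dN90 induced libraries and 34.5 to 77.1 (median 54.3) in livers (log2 difference -0.88 ± 0.21 (SE), limma adjusted p = 0.016). The compared groups did not overlap, and the lowest dN90 induced library, replicate 4, lay just above the highest skip1 induced library, replicate 2. The call of Lss was lost without dN90 induced replicate 1 (limma adjusted p = 0.053) or replicate 2 (0.0656). Hmgcs1, a synthase of the early pathway, had 70.2, 103, 81.2, 118 and 92 in skip1 induced libraries, against 156, 135, 121 and 97.8 in dN90 induced libraries (log2 difference -0.46 ± 0.23 (SE), limma adjusted p = 0.324), and was not called. Sqle, the squalene epoxidase further down, was not called (log2 difference -0.48 ± 0.17 (SE), limma adjusted p = 0.131). The count of 6 rested on single libraries, since it was 3 without skip1 induced replicate 1, skip1 induced replicate 3 or dN90 induced replicate 3, and 2 without dN90 induced replicate 1 or 2.

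Of genes of fatty acid oxidation, 4 of 27 were higher (14.8%, against 3.17% of all genes) and none lower, with a median of 0.14 (1 lower without dN90 induced replicate 4). Of fatty acid and triglyceride synthesis, 1 of 25 was higher and 1 lower, shares near those of all genes, with a median of -0.02. Fabp1, the fatty acid carrier of the hepatocyte cytosol, had 309, 361, 144, 144 and 226 normalized counts in skip1 induced libraries, against 51.9, 52, 30.1 and 56.6 in dN90 induced libraries (log2 difference 2.23 ± 0.25 (SE), limma adjusted p = 6.56e-06). Me1, the malic enzyme that supplies NADPH for synthesis, had 58.2, 133, 49.3, 57 and 65.1 in skip1 induced libraries, against 18.9, 12.3, 15.1 and 24.9 in dN90 induced libraries (log2 difference 1.92 ± 0.30 (SE), limma adjusted p = 0.000294). Acaa1b, a peroxisomal thiolase, had 112, 197, 51.1, 68.6 and 132 in skip1 induced libraries, against 29.9, 31.6, 35.1 and 31.8 in dN90 induced libraries (log2 difference 1.62 ± 0.29 (SE), limma adjusted p = 0.00109). Each separated the groups, and skip1 induced replicate 2 was highest for all 3. Acsl4, which activates arachidonic acid, was lower, at 36.2 to 58.1 in skip1 induced libraries, against 79.5 to 109 in dN90 induced libraries (log2 difference -0.92 ± 0.20 (SE), limma adjusted p = 0.00781).

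Some proteins of the cell cortex were lower in skip1 induced libraries. Of 26 cytoskeletal genes tested, 5 were lower (19.2%, against 1.46% of all genes) and none higher, with a median of -0.41. Ahnak (chr19:8989284-9076914), a giant scaffold under the plasma membrane, had 366, 285, 407, 317 and 295 normalized counts in skip1 induced libraries, against 883, 795, 1218 and 1514 in dN90 induced libraries and 59.2 to 163 (median 83.9) in livers (log2 difference -1.69 ± 0.23 (SE), limma adjusted p = 4.4e-05). Livers, skip1 induced and dN90 induced libraries formed 3 ranges that did not overlap. Cnn3, an actin-binding calponin, had 49.5, 51.8, 65.9, 44.2 and 36.2 in skip1 induced libraries, against 107, 78.6, 109 and 108 in dN90 induced libraries (log2 difference -1.02 ± 0.20 (SE), limma adjusted p = 0.00219). Myo1c, a myosin that links membranes to actin and that is not on that list, had 112, 81.5, 104, 119 and 97 in skip1 induced libraries, against 203, 153, 239 and 234 in dN90 induced libraries (log2 difference -1.0 ± 0.20 (SE), limma adjusted p = 0.00386). The groups did not overlap for either. The count of 5 was 2 without dN90 induced replicate 3 and 3 without replicate 4.

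Krt8, the keratin of simple epithelia that is also raised in biliary cells, had 215, 186, 260.1, 287 and 209 normalized counts in skip1 induced libraries, against 469.5, 276, 472 and 505 in dN90 induced libraries and 80.4 to 109 in livers (log2 difference -0.87 ± 0.19 (SE), limma adjusted p = 0.0056). The groups overlapped slightly, as skip1 induced replicate 4 lay above dN90 induced replicate 2. Cholangiocyte markers, which mark bile duct cells, had 2 of 7 genes in the table above the filter and neither was called. Their summed level ran from 187.7 to 420.0 in skip1 induced libraries, 89.9 to 682 in dN90 induced libraries and 30.3 to 44.5 in livers, and their part in the keratin difference was not tested.

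The YAP and TEAD list holds genes that the Hippo pathway effectors switch on and some of its components. Of its 17 tested members, 2 were lower (11.8%, against 1.46% of all genes), and the median was -0.43. Amotl2 (chr9:102716672-102733418), a junction protein that binds YAP and is induced by it, had 34.4, 17.6, 18.6, 34.3 and 24.5 normalized counts in skip1 induced libraries, against 97.5, 53.1, 124 and 77.5 in dN90 induced libraries and 4.62 to 19.7 in livers (log2 difference -1.72 ± 0.33 (SE), limma adjusted p = 0.00206). Ptpn14, a phosphatase that binds YAP, had 17.2, 10.2, 29.7, 15.3 and 13.8 in skip1 induced libraries, against 49.6, 45.9, 56.4 and 45.7 in dN90 induced libraries and 0 to 6.87 in livers (log2 difference -1.54 ± 0.32 (SE), limma adjusted p = 0.0052). All dN90 induced libraries exceeded all skip1 induced libraries in both. Ccn1, a secreted matrix protein often used as a YAP readout, had 23.7, 18.5, 25.1, 34.3 and 24.5 in skip1 induced libraries, against 81, 27.5, 72.7 and 40.7 in dN90 induced libraries (log2 difference -1.01 ± 0.34 (SE), limma adjusted p = 0.11), and was not called. Yap1 itself had 34.6, 50.5, 20.5, 37.9 and 33.2 in skip1 induced libraries, against 29.2, 25.6, 51.7 and 25.6 in dN90 induced libraries (log2 difference 0.10 ± 0.25 (SE), limma adjusted p = 0.899). The list's count was 5 with voom.

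The promoters of Amotl2 and Ptpn14 are shown because they are the 2 called members of that list and both windows hold the TEAD motif GGAATG, here as its reverse complement CATTCC, in capitals. The sequences are RefSeq's on GRCm38.p6, chr9:102717554-102717853 and chr1:189728018-189728317, both on the plus strand, from 250 bases before to 50 after the start site.
Amotl2: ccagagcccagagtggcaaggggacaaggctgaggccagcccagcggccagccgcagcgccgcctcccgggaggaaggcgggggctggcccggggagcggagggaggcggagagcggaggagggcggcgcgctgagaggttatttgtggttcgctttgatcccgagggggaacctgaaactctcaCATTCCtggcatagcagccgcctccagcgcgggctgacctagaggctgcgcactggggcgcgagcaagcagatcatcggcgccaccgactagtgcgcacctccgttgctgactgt
Ptpn14: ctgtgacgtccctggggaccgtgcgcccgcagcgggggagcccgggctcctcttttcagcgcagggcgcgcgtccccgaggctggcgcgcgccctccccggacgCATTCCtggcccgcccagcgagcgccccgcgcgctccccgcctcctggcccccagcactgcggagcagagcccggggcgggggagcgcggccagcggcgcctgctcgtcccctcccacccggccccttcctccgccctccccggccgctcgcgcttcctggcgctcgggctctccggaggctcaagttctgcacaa
The matches lie 65 and 146 bases before the start sites of these windows, and the Amotl2 window also holds 1 match to the TCF motif CTTTGAT. The Amotl2 window lies wholly inside the gene coordinates given above, so its start site is not the outermost one of the gene. On either strand the TEAD motif was in 9 of the 72 lower genes with a promoter (12.5%), in 37 of the 164 higher genes (22.6%), in 11.9% of tested genes and in 14.6% of all promoters. The TCF motif was in 7 of the higher genes (4.27%), 3 of the lower genes (4.17%) and 2.58% of tested genes. The share of TEAD matches among the lower genes was thus close to that of all tested genes.

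Of a list of fetal and growth-related transcripts, 3 of 10 tested were lower (30%, against 1.46% of all genes), with none higher. A further 11 members fell below the filter on low values. Without that filter 3 of 21 were lower, against 0.887% of all genes then tested, and none of those 11 was called. H19 (chr7:142575529-142578143), an imprinted noncoding RNA abundant in fetal liver, had 1.08, 4.63, 10.2, 11.7 and 5.33 normalized counts in skip1 induced libraries, against 35.4, 15.3, 148 and 70.5 in dN90 induced libraries and 0 to 1.37 in livers (log2 difference -2.97 ± 0.58 (SE), limma adjusted p = 0.00286). Every dN90 induced library exceeded every skip1 induced library, with dN90 induced replicate 3 highest. Igfbp2, a plasma protein that binds IGFs, had 33.2, 29.5, 26.7, 11.1 and 16.4 in skip1 induced libraries, against 47.7, 36.7, 86.4 and 81.7 in dN90 induced libraries and 32.1 to 112 in livers (log2 difference -1.41 ± 0.30 (SE), limma adjusted p = 0.00635). For this gene the skip1 induced libraries lay at or below the low end of the livers. Igfbp1, the remaining call, was lower by a log2 difference of -2.11. That call was lost without any 1 of skip1 induced replicates 1, 2 and 5 or of the dN90 induced libraries (limma adjusted p from 0.0658 to 0.104). Afp, a fetal serum protein below the filter on low values, was not called without that filter (log2 difference 1.36, limma adjusted p = 0.194). Mki67, the proliferation marker, had 32.3, 25.9, 50.2, 46 and 45.8 in skip1 induced libraries, against 22.8, 24.5, 17.6 and 52.7 in dN90 induced libraries (log2 difference 0.52 ± 0.41 (SE), limma adjusted p = 0.606), and 0 of 15 cell cycle genes were called.

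Iron handling held 2 genes lower and 2 higher of 27, 7.41% each way, against 1.46% lower and 3.17% higher of all genes. The count of higher genes ran from 0, without dN90 induced replicate 3, to 4, without skip1 induced replicate 3. Hamp2 (chr7:30922372-30924681), a mouse paralogue of the iron hormone hepcidin, had 2.15, 12, 0.929, 0 and 1.06 normalized counts in skip1 induced libraries, against 35.4, 31.6, 46.4 and 46.7 in dN90 induced libraries and 0 to 5.75 in livers (log2 difference -3.87 ± 0.67 (SE), limma adjusted p = 0.000821). The dN90 induced values lay within a narrow range, far above all but replicate 2 of the skip1 induced libraries. Hamp, hepcidin itself and a close copy, was not called, with 169, 193, 109.6, 113 and 99 in skip1 induced libraries, against 126, 87.7, 163 and 121 in dN90 induced libraries (log2 difference 0.12 ± 0.32 (SE), limma adjusted p = 0.911). Tfrc, the transferrin receptor, was lower by a log2 difference of -1.35 (limma adjusted p = 0.0204), a call lost on leaving out any 1 of skip1 induced replicates 1 and 4 and dN90 induced replicates 1, 2 and 4, with adjusted p from 0.0556 to 0.0722. Slc40a1, the iron exporter ferroportin, was higher by 0.82 ± 0.19 (SE, log2; limma adjusted p = 0.0102), a call lost without dN90 induced replicate 3 (adjusted p = 0.0654).

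**Figure D5:**
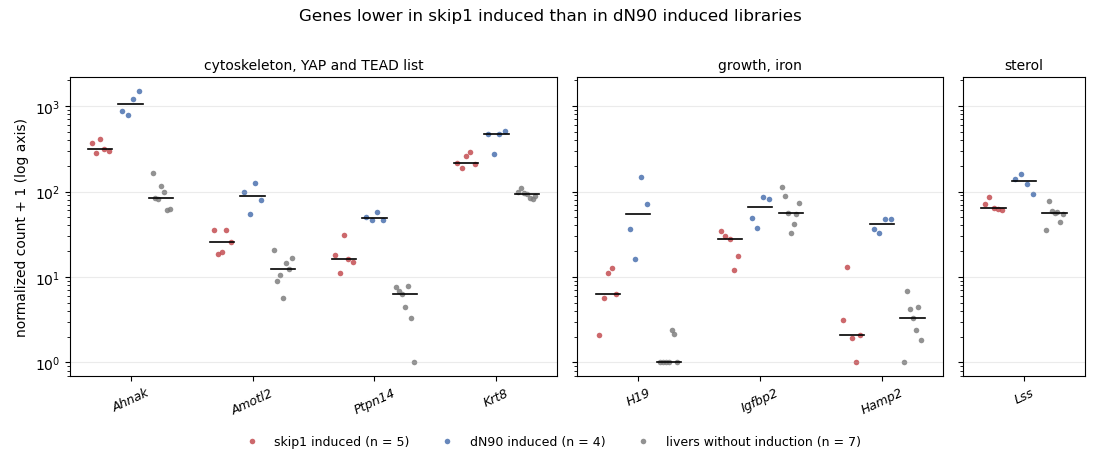
Normalized count plus 1 (vertical axis, log scale) of 8 genes called lower in skip1 induced libraries; each point is a library, the black lines are group medians, and for each gene the order is skip1 induced (red, 5), dN90 induced (blue, 4) and livers without induction (grey, 7). All but Krt8 separate the compared groups, and for Ahnak the livers form a further, lower range.

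Several large programmes showed no called difference or few. None of 73 cytosolic ribosomal protein genes was called (median -0.11), none of 15 cell cycle genes (median 0.28) and none of 4 S100 genes. Of 67 nuclear-encoded respiratory chain genes 2 were higher (median 0.27), a share close to that of all genes, and without skip1 induced replicate 4 the count was 5. Interferon-stimulated genes gave 3 of 24 higher (12.5%, against 3.17% of all genes). Among them was Bst2, which tethers budding viruses to the cell surface, with 59.2, 57.4, 46.4, 55.1 and 68.1 normalized counts in skip1 induced libraries, against 30.7, 19.4, 26.3 and 27.8 in dN90 induced libraries (log2 difference 1.11 ± 0.19 (SE), limma adjusted p = 0.000679). The call of Ifi27 was lost without dN90 induced replicate 2 (limma adjusted p = 0.0781), and that of Iigp1 without dN90 induced replicate 3 (0.161), among other fits. Without the filter on low values, 2 of 46 interferon-stimulated genes were higher, against 1.51% of all genes then tested. Hectd2, a ubiquitin ligase on none of the lists, was among the largest differences, with 253, 294, 87.3, 85.7 and 199 in skip1 induced libraries, against 11.8, 23.5, 10 and 3.97 in dN90 induced libraries (log2 difference 3.83 ± 0.60 (SE), limma adjusted p = 0.000293). Abhd2, a lipase on none of the lists, was lower, with 66.7, 74, 62.2, 70.4 and 63.9 in skip1 induced libraries, against 150.2, 121, 134 and 120.2 in dN90 induced libraries (log2 difference -0.95 ± 0.17 (SE), limma adjusted p = 0.00129).

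Markers of other liver cells moved with the comparison in part. Of 18 endothelial markers tested, 6 were higher and none lower, and their summed level was 673 to 793 in skip1 induced libraries, 443 to 701 in dN90 induced libraries and 686.5 to 804.6 in livers. Dnase1l3, a secreted nuclease of sinusoidal cells, had 34.4, 37, 31.6, 35.2 and 42.6 normalized counts in skip1 induced libraries, against 7.08, 25.5, 11.3 and 8.94 in dN90 induced libraries (log2 difference 1.54 ± 0.27 (SE), limma adjusted p = 0.000877). Clec4g, a lectin of the same cells, had 21.5, 25.9, 27.9, 19 and 20.2 in skip1 induced libraries, against 3.93, 13.3, 16.3 and 6.95 in dN90 induced libraries (log2 difference 1.25 ± 0.28 (SE), limma adjusted p = 0.00873). Both separated the groups. The endothelial count was 3 without skip1 induced replicate 1, 2 or 5 or dN90 induced replicate 1 or 4, and 2 without dN90 induced replicate 3.

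Kupffer cell and macrophage markers gave 4 of 16 higher, with sums of 726 to 1309 in skip1 induced libraries, 771 to 1115 in dN90 induced libraries and 489 to 704 in livers. The count of 4 was 2 without skip1 induced replicate 1, 3 or 4 and 0 without dN90 induced replicate 3. Stellate and fibroblast markers gave 0 of 11, with sums of 509 to 630 in skip1 induced libraries, 273.0 to 542 in dN90 induced libraries and 378 to 514 in livers. All 11 of their log2 differences were nonetheless positive, with a median of 0.51. For the endothelial list all 18 were positive, with a median of 0.58. No T and NK cell, B cell or neutrophil marker passed the filter, and the highest sum of these 3 lists in a compared library was 19.9. Hepatocyte markers summed to 15520 to 50830 in skip1 induced libraries, 15850 to 23090 in dN90 induced libraries and 57200 to 78000 in livers, with 2 of 12 higher. The part of cell composition in the differences above was not tested.

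The skip1 induced libraries were spread widely. Their correlations with each other over log2 values were 0.839 to 0.927, against 0.874 to 0.912 within dN90 induced and 0.767 to 0.872 between the groups. Replicates 1 and 2 lay nearer the livers on the first component, with the highest Alb (20193, 35386, 8019, 11658 and 11617 normalized counts over replicates 1 to 5) and the lowest Glul (558, 500.4, 1227, 1910.0 and 1539.6) and Axin2 (8.61, 12, 23.2, 26.2 and 20.2). Cyp2f2 and Hal were highest in replicate 2 and lowest in replicates 3 and 4. Without replicates 1 and 2 together, 152 genes were higher and 101 lower, against 209 and 96 with all 5, and 12 of 15 male-biased, 11 of 16 Mup and 4 of 14 pericentral genes were called higher.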

How the data were processed

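RNA of 18 mouse liver libraries was held in 1 deposited table of 14086 genes. Its values are normalized counts per gene, a signal at or above 0 that the authors scaled between libraries before deposit; no row was left out as naming no gene. The submitters' processing notes name FastQC, STAR, RSEM, DESeq2 and the mm10 build; versions and settings are not given in the sources used here. Of the values above 0, 58.9% to 60.5% per library were whole multiples, within 0.001, of a smallest step, so estimated reads (the column sum divided by that step) give depth only roughly. They were 361772 to 574899 in the compared libraries. A second deposited table of z-scores was not used.

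Of these genes, 6592 averaged 10 or more across all 18 libraries and were tested. The test was limma 3.58.1 (R 4.3.3) on log2(value + 1), two-sided, fitting each group's mean with a trended prior, and genes with a Benjamini-Hochberg adjusted p under 0.05 over the 6592 were called. On this scale the change of low genes is understated. Replicate numbers follow accession order and pair nothing. Alternatives (20) were pseudocounts of 0.5 and 5, no filter, a minimum mean of 50, scaling by upper quartile or by quantiles, the compared groups alone, array weights, voom on estimated reads scaled by their total, log2 depth in the model, omission of both skip1 induced replicates 1 and 2, and omission of each of the 9 libraries. The test was checked on simulated data.

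The members and gene lists were chosen with earlier results of these data known, so list counts are descriptions beside the share over all genes. Named genes follow a rule: the 15 called genes with the largest difference each way, if the groups do not overlap and the higher one averages 100 or more; as many as 5 called members of a list each way; and a short set always named. It selected 144, of which the text names part. Slc1a2, Ftcd, Elovl3, Cyp2u1, Cux2, Cyp2b9, Atp6v0d2, Igf1, Hc, C3, C4bp, C8g, Mbl2, Cyp7a1, Hmgcs1, Sqle, Ccn1, Hamp and Neto2 stand outside it and were chosen after their values were seen. Gene coordinates are GENCODE's on mm10, and promoters are RefSeq's on GRCm38.p6, found for 164 of the 209 higher and 72 of the 96 lower genes. Copies of multigene families (Mup, Serpina, Cyp, Ugt, Ces) can share reads.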

Additional observations from a re-analysis of the deposited data

Results flagged for a closer look

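In each compared group the library farthest from the others was tested for 92 genes with Dixon's criterion, which chance meets in about 1 of 20 groups; 13 of 184 groups met it. In skip1 induced libraries, replicate 1 stood apart for Ctnnb1 (1266 normalized counts, the others 580.2 to 768) and Cyp2b9 (2.15, the others 0). Replicate 2 stood apart for Mup7 (2351, the others 76.2 to 464), Me1 (133, the others 49.3 to 65.1) and Hamp2 (12, the others 0 to 2.15). Replicate 3 was low for Hnf4a (278, the others 395 to 431). In dN90 induced libraries, replicate 1 stood apart for Aox3 (84.2, the others 57.7 to 61.6), Mup10 (55.1, the others 0) and Sds (0.787, the others 0). Replicate 2 was low for Cnn3 (78.5, the others 107 to 109) and Krt8 (276, the others 470 to 505). Replicate 3 was high for Yap1 (51.7, the others 25.6 to 29.2), and replicate 4 low for C6 (11.9, the others 23.5 to 25.2). Leaving out any of these libraries ended none of the calls of Ctnnb1, Me1, Hamp2, Aox3, Cnn3, Krt8 and C6.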

How the results depend on the processing

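The counts of genes called were within 1.5 times of the reported ones under all 20 alternatives but 2: the number lower was 170 with voom and 48 without dN90 induced replicate 3. The cause was not tested. Leaving out 1 library at a time gave 157 to 248 genes higher and 48 to 90 lower. With the compared groups alone in the fit, 180 genes were higher and 126 lower, and 255 of the 305 calls were kept. Of 2841 values of 144 named genes under these alternatives, 2532 kept direction and side of the threshold, 301 kept direction but missed it and 8 changed sign, none of them of a called gene. With 1 library left out at a time, the log2 difference of Axin2 ran from -0.0459 to 0.498, Yap1 from -0.0376 to 0.333, Cyp2e1 from -0.218 to 0.0274 and Stat5b from -0.167 to 0.272. Stat5b was -0.0177 with voom, and Yap1 was -0.0923 without both skip1 induced replicates 1 and 2. Without skip1 induced replicates 1 and 2, P450 families 1 to 3 gave 5 called higher and 3 lower (median 0.14, against 0.61 with all libraries), coagulation genes 1 higher and 2 lower, general secreted proteins 2 higher and 1 lower, UDP-glucuronosyltransferases 4 higher and 1 lower, and glutathione S-transferases 2 higher and none lower. With voom, carboxylesterases gave 2. No paired analysis was possible because the replicate numbers only follow the order of the accessions. Depth limits genes near 1 read, and with 5 and 4 libraries a difference under the threshold is not shown to be absent.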

Other observations

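A few called genes belong to programmes not described above. The acute-phase list, plasma proteins that change in inflammation, gave 2 of 20 higher and 1 lower. Those shares were 10% and 5%, against 3.17% higher and 1.46% lower of all genes. Saa4, a constitutively made serum amyloid, had 66.7, 99.9, 24.1, 34.3 and 31.9 normalized counts in skip1 induced libraries, against 10.2, 9.18, 2.51 and 4.97 in dN90 induced libraries (log2 difference 2.71 ± 0.39 (SE), limma adjusted p = 0.00013). Orm1, an acute-phase glycoprotein, had 105, 132, 62.2, 55.1 and 38.3 in skip1 induced libraries, against 37.8, 25.5, 11.3 and 4.97 in dN90 induced libraries (log2 difference 2.13 ± 0.41 (SE), limma adjusted p = 0.00254). Neto2, a subunit of glutamate receptor complexes in neurons, had 15.1, 5.57, 64.3, 33.5 and 45.9 in skip1 induced libraries, against 0.789, 9.91, 3.77 and 0 in dN90 induced libraries and 5.51 to 21.9 in livers (log2 difference 3.05 ± 0.61 (SE), limma adjusted p = 0.00368), and the compared groups overlapped.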
